A study of Homo sapiens with 7 samples.

Results

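Gene counts of 2 RNA-seq libraries were compared: HCT116 p53-/- cells infected with p53-M133T and the same cells with the vector control, both cultured for 24 h with 1 µg/ml of arsenic trioxide (ATO). They are 2 of the 7 libraries of the series, were chosen by their labels, and were compared over 12661 genes. HCT116 comes from a human colon cancer, and its p53-/- derivative, which all libraries of the series share, makes no working p53. The other libraries are vector, p53-M133T, p53-R273H and wild-type p53 without ATO, and p53-R273H with the same ATO treatment. Each group is 1 library, so no difference has a replicate check and none has a p-value. The control is called a vector in the design text and "Vechile" in the sample titles. The sources used here do not give the promoter that drives the introduced p53 or the number of clones or cultures behind a library. Both members of the pair received ATO, so the comparison asks what p53-M133T adds to transcript levels in arsenic-treated cells.

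p53 is a transcription factor that binds response elements in DNA as a tetramer and activates genes for cell cycle arrest, apoptosis, DNA repair and metabolism, and for its own degradation through MDM2. M133T lies in the DNA-binding domain and is described as a structural substitution, while R273H removes a residue that contacts DNA. ATO is an arsenic compound used against acute promyelocytic leukemia that also induces metallothionein and oxidative stress genes in many cells. The p21 protein encoded by CDKN1A blocks cyclin-dependent kinases, and p21 allows repressor complexes to assemble on the promoters of cell cycle genes.

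Total counts were 39173297 for p53-M133T with ATO and 38577709 for vector with ATO, and lay between 25062996 and 39297534 over all 7 libraries. Levels are CPM, counts scaled to a common library size by the TMM method, whose factors were 0.967 and 0.970 for this pair. Log2 ratios were taken after adding 1 CPM, and folds are ratios of scaled counts with a 95% Clopper-Pearson interval that covers counting error only. The library of wild-type p53 carries another numeric prefix in its name than the other 6, so genotype and library batch cannot be told apart for it. Of 15 colon epithelial markers 7 passed the filter, with EPCAM at 250 CPM in p53-M133T with ATO and 261 CPM in vector with ATO, while TFF3 had no counts in either. KRT8 was at 2292 and 2157 CPM in the same order. Summed leukocyte markers reached 9.2 and 7.9 CPM, fibroblast markers 18.9 and 17.6 CPM, nearly all from CD68 and COL1A1, and the fibroblast markers DCN, FAP and POSTN had no counts in either.

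Very few genes separated the 2 arsenic-treated libraries. At least 2-fold higher in p53-M133T were 24 of 12661 genes (0.19%), and at least 2-fold lower were 5 (0.0395%). A 1.5-fold size rule, chosen after the values were seen, gave 91 higher (0.719%) and 34 lower (0.269%). The median log2 ratio over all genes was 0.001 with an SD of 0.188, and 50.4% of genes were above 0. Of the 24 higher genes, 7 are listed p53 targets. Listed p53 targets here means 136 genes written into 6 lists by function, of which all but 3 were in the table and 126 passed the filter of 1 CPM in at least 1 library. TRIM22, TP53AIP1, EDA2R, GLS2, SPATA18, GRHL3 and PADI4 did not pass it.

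**Figure D1:**
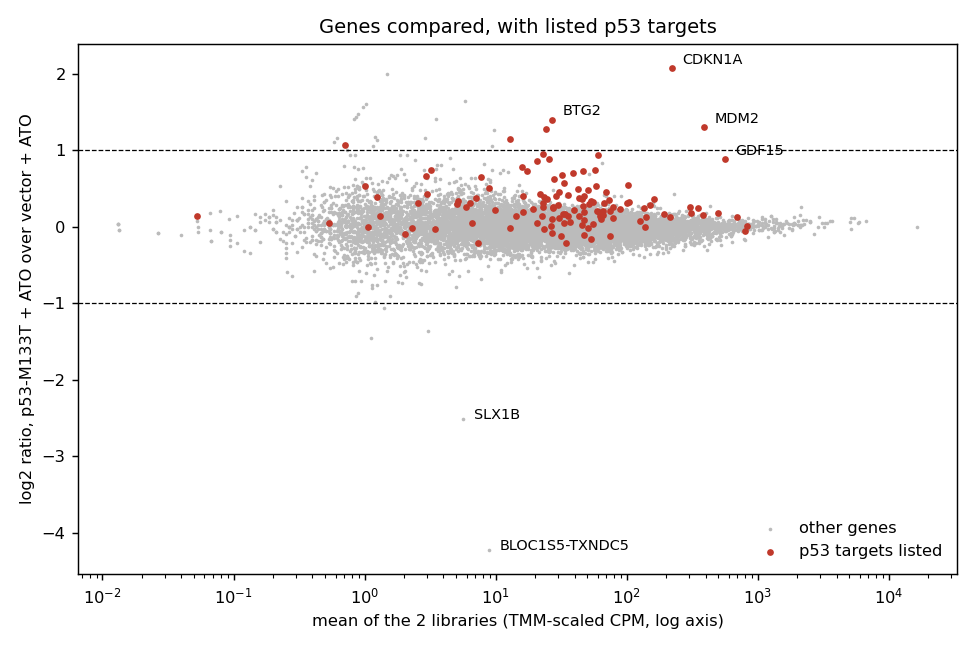
Log2 ratio of p53-M133T with ATO over vector with ATO (vertical axis, CPM + 1) against the mean level of both libraries (horizontal log axis, TMM-scaled CPM), 1 point per gene, with listed p53 targets in red and dashed lines at 2-fold. The plot leaves out genes without counts in both libraries and a few others. CDKN1A, MDM2 and BTG2 stand above the upper line, and no listed p53 target is below the lower line.

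Of the 126 listed p53 targets, 7 (5.56%) were at least 2-fold higher in p53-M133T with ATO, beside 0.19% of all genes, and 0 were at least 2-fold lower. At 1.5-fold, 22 (17.5%) were higher, beside 0.719% of all genes, and 0 were lower. In all, 110 of 126 were above 0, with a median log2 ratio of 0.258 beside 0.001 over all genes. The counting interval lay above 1 for 95 of them and below 1 for 7. Over all genes, 18.4% of intervals lay above 1 and 19.2% below, so most p53 targets differed by less than 1.5-fold but in the same direction. In 81 of the 126 genes p53-M133T with ATO held the highest level of the 6 libraries other than wild type, as in 18.3% of all genes.

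Among the listed arrest targets, CDKN1A differed most and BTG2 next. CDKN1A (ENSG00000124762, hg38 chromosome 6, 36676460 to 36687339, plus strand), which encodes the cyclin-dependent kinase inhibitor p21, was at 357 CPM in p53-M133T with ATO and 83.9 CPM in vector with ATO. It was at 60.9 CPM in vector, 85.0 CPM in p53-M133T, 61.5 CPM in p53-R273H, 74.6 CPM in p53-R273H with ATO and 196 CPM with wild-type p53. The level with p53-M133T and ATO was therefore the highest of the 7, and the fold over vector with ATO was 4.25 (4.09 to 4.42). BTG2 (ENSG00000159388, hg38 chromosome 1, 203305491 to 203309602, plus strand), an antiproliferative gene, was at 39.6 CPM against 14.5 CPM, a fold of 2.74 (2.48 to 3.03). The remaining libraries without wild-type p53 held between 11.04 and 18.4 CPM of BTG2, and the wild-type library 47.4 CPM. Of the 11 arrest targets that passed the filter 10 were above 0, with a median log2 ratio of 0.230, and the lowest was BTG1, a relative of BTG2, at 71.2 against 77.3 CPM.

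Among the feedback genes, MDM2 led. MDM2 (ENSG00000135679, hg38 chromosome 12, 68808176 to 68850686, plus strand), the ubiquitin ligase that degrades p53, was at 550 CPM in p53-M133T with ATO and 222 CPM in vector with ATO, a fold of 2.48 (2.41 to 2.54). The p53-M133T library without ATO held the lowest MDM2 level of the 7, at 131 CPM, next to 150 CPM in vector, 150 CPM in p53-R273H, 184 CPM in p53-R273H with ATO and 243 CPM with wild-type p53. PHLDA3, a p53-induced inhibitor of AKT signalling, was at 30.6 against 15.3 CPM, a fold of 2.001 (1.81 to 2.22) that missed 2-fold on the log2 scale with the pseudocount. The lowest of the 9 members was RCHY1, another ubiquitin ligase for p53, at 31.9 against 37.1 CPM. Feedback genes had the smallest median of the 6 p53 lists, 0.125.

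**Figure D2:**
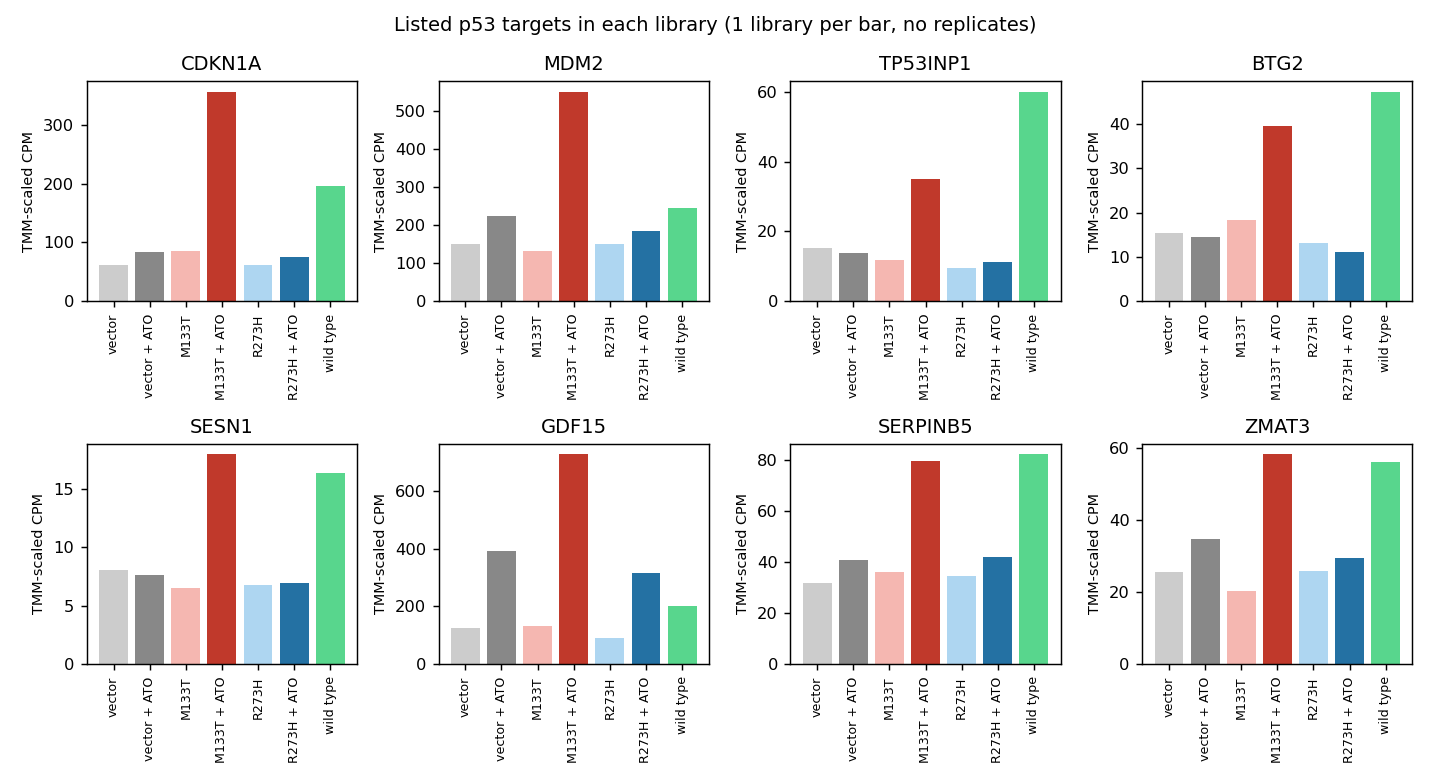
TMM-scaled CPM (vertical axis from 0) of 8 listed p53 targets in each of the 7 libraries, 1 bar per library without replicates. In p53-M133T with ATO, MDM2 stood at 550 CPM and SESN1 at 18.0 CPM, both the highest of the 7, while BTG2 at 39.6 CPM was below wild-type p53 at 47.4 CPM.

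Apoptosis targets included TP53INP1, a stress-induced partner of p53 in autophagy and cell death, at 34.97 CPM in p53-M133T with ATO and 13.8 CPM in vector with ATO, a fold of 2.54 (2.29 to 2.81). Its level was 15.2 CPM in vector, 11.9 CPM in p53-M133T, 9.47 CPM in p53-R273H, 11.1 CPM in p53-R273H with ATO and 60.3 CPM with wild-type p53. The level in p53-M133T with ATO was thus apart from the other 5 libraries and below wild type. Between 1.5-fold and 2-fold came BBC3, which encodes the BH3-only killer protein PUMA, at 26.8 against 14.3 CPM and a fold of 1.88 (1.69 to 2.09). ZMAT3, a zinc finger RNA-binding protein, was at 58.2 against 34.7 CPM. FAS, the death receptor, was at 21.9 against 12.8 CPM, and TP53I3, a quinone oxidoreductase, at 9.64 against 5.77 CPM. The effector BAX was at 68.7 against 47.1 CPM, a fold of 1.46 (1.37 to 1.55) below the 1.5-fold size. PMAIP1, which encodes the BH3-only protein NOXA, was the lowest of the 21 members at 50.9 against 56.8 CPM, a fold of 0.896 (0.842 to 0.954).

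Of 11 repair and nucleotide supply targets, DDB2 and RPS27L passed 1.5-fold and none passed 2-fold. DDB2, the damage sensor of nucleotide excision repair, was at 33.4 CPM in p53-M133T with ATO and 17.6 CPM in vector with ATO, a fold of 1.90 (1.73 to 2.09). In both arsenic-treated controls DDB2 was lower than in their untreated partners, 17.6 against 28.5 CPM for vector and 13.2 against 21.9 CPM for p53-R273H, whereas p53-M133T held 29.7 CPM without and 33.4 CPM with ATO. RPS27L, a ribosomal protein paralogue, was at 48.6 against 29.3 CPM, with 31.2 CPM in vector, 26.4 CPM in p53-M133T, 15.8 CPM in p53-R273H, 18.5 CPM in p53-R273H with ATO and 48.8 CPM with wild-type p53.

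In the metabolism group SESN1, a sestrin that restrains mTORC1, was at 18.0 CPM in p53-M133T with ATO and 7.59 CPM in vector with ATO, a fold of 2.37 (2.06 to 2.74). The other libraries without wild-type p53 held between 6.52 and 8.04 CPM, and the wild-type library 16.4 CPM. FDXR, the mitochondrial ferredoxin reductase, was at 39.9 against 24.7 CPM, but stood at 43.3 CPM in vector without ATO, so it was not the highest of the 6 libraries. TIGAR, a fructose bisphosphatase that lowers glycolysis, was at 34.3 against 21.9 CPM, and the ceramidase ACER2 at 3.83 against 2.06 CPM. SCO2, a cytochrome c oxidase assembly factor, was the lowest at 6.74 against 7.94 CPM, with an interval of the fold from 0.715 to 1.01 that holds 1.

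Secreted, membrane and signalling targets made up the largest group, and 48 of its 54 members were above 0. INPP5D, the lipid phosphatase SHIP1, was at 1.32 against 0.107 CPM, a fold of 12.4 with the wide interval of 4.54 to 47.1 that so few counts allow. GDF15, a secreted stress cytokine, was at 729 against 392.4 CPM, a fold of 1.86 (1.82 to 1.90). GDF15 differed in the controls as well, from 125 CPM in vector and 88.5 CPM in p53-R273H without ATO to 392.4 and 318 CPM with it. SERPINB5, the serpin maspin, was at 79.7 against 40.9 CPM, next to 82.3 CPM with wild-type p53 and 31.9 to 41.7 CPM in the other libraries. SUSD6, ORAI3 and HSPA4L were also past 1.5-fold, with folds of 1.79, 1.99 and 1.69, and TLR3 was the lowest of the group with a log2 ratio of −0.087.

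Between the targets past 1.5-fold and those below 0 lay a broad middle group, from which the next members are named after their values were seen. PLK3, a stress-response kinase, was at 40.1 CPM in p53-M133T with ATO against 26.6 CPM in vector with ATO, a fold of 1.504 that missed 1.5-fold on the log2 scale with the pseudocount. RRM2B, the p53-induced ribonucleotide reductase subunit, was at 121 against 82.5 CPM, and was also high with wild-type p53, at 109 CPM, against 52.6 to 81.2 CPM in the other 4 libraries. GADD45A, TRIAP1, PIDD1 and XPC had log2 ratios of 0.46, 0.49, 0.39 and 0.32. TNFRSF10B, the TRAIL receptor DR5, was at 384 against 322 CPM, and the sestrin SESN2 at 80.4 against 69.4 CPM. Both were already higher in vector with ATO than in vector without it, at 322 against 191 CPM for TNFRSF10B and 69.4 against 49.1 CPM for SESN2. CCNG1, cyclin G1, was at 224 against 205 CPM, and PERP, a desmosomal protein, had a log2 ratio of 0.003.

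The same 126 genes were read in pairs of libraries that differ in the form of p53 or in ATO. In p53-M133T over vector without ATO, 0 of 126 were at least 1.5-fold higher (background 0.221%) and 0 at least 2-fold (background 0.0948%). The median log2 ratio of the targets was 0.011 and 66 were above 0. In p53-R273H with ATO over vector with ATO, which shares its control library with the main comparison, 0 of 126 were at least 1.5-fold higher (background 0.371%), with a median of −0.069. Wild-type p53 over vector without ATO had 36 of 126 at least 1.5-fold higher (background 8.87%) and 11 at least 2-fold higher (background 2.87%), with a median of 0.277. Over all genes, the wild-type pair thus had a far larger share at least 1.5-fold higher than the main pair, 8.87% against 0.719%, with the batch limit given above. Among the 126 targets the numbers were closer, 36 against 22 at 1.5-fold and 11 against 7 at 2-fold. With wild-type p53, 100 targets were above 0 and 7 at least 1.5-fold lower, beside 110 and 0 in the main pair. The median log2 ratio over all genes was 0.011 in the wild-type pair. The shares of all genes above 0 or at least 1.5-fold lower were not counted for it, so the 100 and the 7 have no background here.

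**Figure D3:**
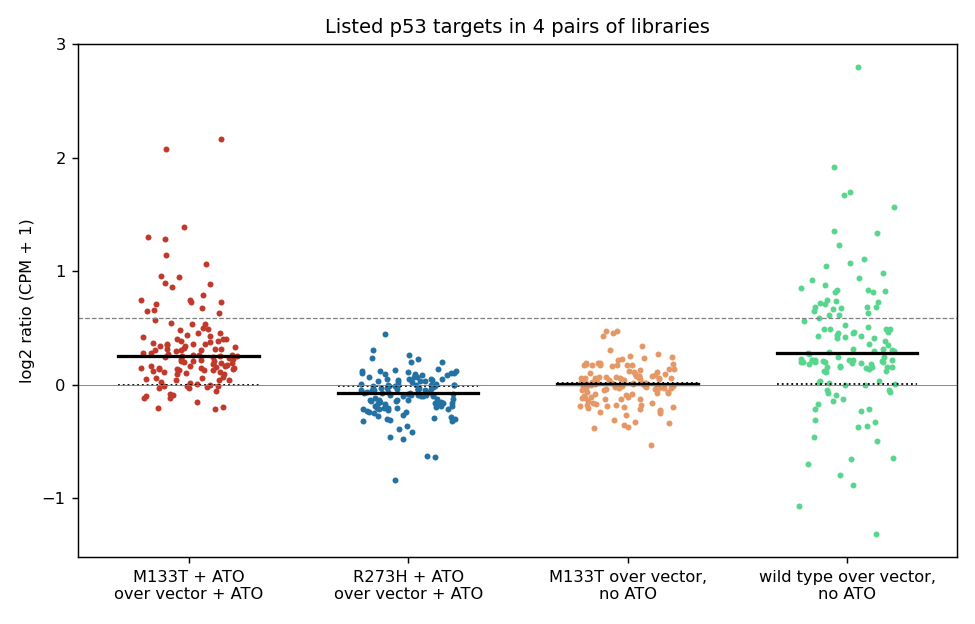
Log2 ratios (CPM + 1) of the 126 listed p53 targets in 4 pairs of libraries, 1 point per gene, with the median of the targets as a solid line, the median of all genes as a dotted line and the 1.5-fold size as a dashed line. The medians were 0.258, −0.069, 0.011 and 0.277 from left to right, and the first 2 pairs share the vector with ATO library.

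The 22 targets past 1.5-fold were chosen by the main comparison, so their values in it are a description. Without ATO, p53-M133T over vector had 11 of the 22 above 0 and 11 below, from −0.378 for ACER2 to 0.474 for CDKN1A. In wild-type p53 over vector the log2 ratios of the 22 ran from −0.004 for BBC3 to 1.917 for TP53INP1. There 17 of the 22 were at least 1.5-fold higher, beside 36 of all 126 listed targets. The 5 others, DDB2, BBC3, HSPA4L, FDXR and PHLDA3, had folds of 1.08, 0.997, 1.01, 1.15 and 1.46 with wild-type p53. An exon of 11 of the 22 overlaps another gene, CDKN1A, MDM2 and SESN1 among them, as in 50.4% of all genes compared. The counting rule for shared exons is not known for these either. In 20 of the 22, p53-M133T with ATO held the highest level of the 6 libraries other than wild type, FDXR and ORAI3 being the exceptions. The share over all genes was 18.3%, but vector with ATO is among the 6, so the choice of the 22 favours this rank by itself. Of the 91 genes of all kinds at least 1.5-fold higher with p53-M133T and ATO, 43 (47.3%) were so with wild-type p53 too, beside 8.87% of all genes. The 43 are 3.83% of the 1123 in the wild-type pair, beside 0.719% of all genes in the main pair, and 17 of them are listed p53 targets. These 2 comparisons have no library in common, and across the 126 targets their log2 ratios had a Pearson correlation of 0.497 and a Spearman correlation of 0.379, a description over genes of the same 4 libraries. With the pair without ATO, also disjoint, 7 of the 91 (7.69%) were shared, beside 0.221% of all genes at least 1.5-fold higher in that pair. The 7 are 25% of its 28, and 0 of them are listed p53 targets.

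Promoter windows of RefSeq (GRCh38.p14, 250 bases before to 50 after the gene start) were found for 19 of the 22. A full p53 response element, taken as a pair of half-sites at most 13 bases apart with at most 2 mismatches, was in 1 of the 19 (FDXR, 5.26%), beside 2.21% of 9727 promoters of the genes compared. An exact half-site was in 2 of 19 (10.5%), beside 5.14%. The listed targets below 1.5-fold held a full element in 5 of 81 windows (6.17%) and a half-site in 7 of 81 (8.64%). The 2 half-sites are shown since p53 is known to bind such elements, many of which lie outside windows of this size, and capitals mark the half-site:
RPS27L, chr15:63157507-63157556, minus strand: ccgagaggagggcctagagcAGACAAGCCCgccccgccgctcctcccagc
FDXR, chr17:74872995-74873025, minus strand: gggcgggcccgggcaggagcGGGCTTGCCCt
RPS27L and FDXR stood at 48.6 and 39.9 CPM in p53-M133T with ATO. The match is a description of letters, and binding was not measured.

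Cell cycle genes were lower in p53-M133T with ATO, each by a small amount. All 40 listed G1/S and DNA replication genes were below 0 (39 with DESeq2 size factors), with a median log2 ratio of −0.204, and the counting interval lay below 1 for 39. All 35 listed G2/M genes were below 0 as well (34 with DESeq2 size factors), with a median of −0.137, and 31 intervals lay below 1. None of the 75 passed 1.5-fold. RFC3, a clamp loader subunit, was the lowest G1/S gene at 49.2 CPM in p53-M133T with ATO against 66.5 CPM in vector with ATO, a fold of 0.740 (0.696 to 0.786), and POLD1, a DNA polymerase subunit, was the highest at 73.6 against 73.9 CPM. MAD2L1, a spindle checkpoint gene, was the lowest G2/M gene at 108 against 141 CPM, a fold of 0.772 (0.741 to 0.804), and CENPF, a kinetochore protein, was the highest at 462 against 464 CPM.

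Summed over the 40 G1/S genes, the level was 4644 CPM in p53-M133T with ATO and 5319 CPM in vector with ATO. It was 5227 CPM in p53-R273H with ATO, 5999 CPM in vector, 6312 CPM in p53-M133T, 5930 CPM in p53-R273H and 2712 CPM with wild-type p53. In 37 of the 40 genes p53-M133T with ATO was the lowest of the 6 libraries other than wild type, as in 14.9% of all genes. The G2/M sums were 5766 and 6287 CPM in the main pair, 6332 CPM in p53-R273H with ATO, between 5680 and 5834 CPM in the 3 untreated libraries without wild-type p53, and 3556 CPM with wild-type p53. The main pair's difference in G2/M genes left the sum of p53-M133T with ATO within the range of the untreated libraries, and in 10 of the 35 genes it was the lowest of the 6. Without ATO the medians of p53-M133T over vector were 0.070 for G1/S and 0.013 for G2/M. In the wild-type pair they were −1.10 and −0.705, and in p53-R273H with ATO over vector with ATO 0.002 and 0.027. With log2 ratios corrected for exon length and GC content, with which the main ratio had a Spearman correlation of 0.028 and 0.321 across genes, 40 of 40 G1/S and 33 of 35 G2/M genes were below 0, with medians of −0.199 and −0.091 beside 0.014 over all genes. Against p53-R273H with ATO, 38 of 40 and 33 of 35 were below 0, with medians of −0.193 and −0.160.

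Repressor complexes that form when p21 is present are known to use CHR and E2F elements, and the promoter windows of the cell cycle genes were searched for both. Whether p21 or these elements had a part in the lower levels was not tested. The cell cycle genes homology region (CHR) TTTGAA, searched on both strands, was in 16 of 28 G2/M promoter windows (57.1%), beside 9.23% of all windows and 10.0% of those of listed p53 targets. E2F sites, searched on both strands as TTTGGCG and as the variants with TTTCCCG and with the letters TTTCGCG, were in 23 of 35 G1/S windows (65.7%), beside 11.7% of all windows. No string is part of another. The shares of the G2/M and G1/S lists depend only on which genes were listed, and would be the same whatever their levels in these libraries. Windows upstream of the start are shown for the lowest members of each list with a match there. Capitals mark the match nearest the start, and the HMMR window holds another TTTGAA directly before it:
CDK1, chr10:60778150-60778195, plus strand: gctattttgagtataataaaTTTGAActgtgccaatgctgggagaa
HMMR, chr5:163460590-163460631, plus strand: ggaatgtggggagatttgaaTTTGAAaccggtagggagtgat
ECT2, chr3:172750591-172750636, plus strand: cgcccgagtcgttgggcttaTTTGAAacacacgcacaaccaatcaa
KIF11, chr10:92593082-92593127, plus strand: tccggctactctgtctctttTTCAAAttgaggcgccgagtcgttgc
RFC3, chr13:33818075-33818121, plus strand: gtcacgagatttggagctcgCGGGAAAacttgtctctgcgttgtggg
CDC6, chr17:40287831-40287877, plus strand: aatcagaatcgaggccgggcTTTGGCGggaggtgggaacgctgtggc
POLA2, chr11:65261918-65261961, plus strand: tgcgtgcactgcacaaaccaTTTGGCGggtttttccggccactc
GINS2, chr16:85688958-85689004, minus strand: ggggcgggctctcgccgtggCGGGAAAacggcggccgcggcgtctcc
The log2 ratios of these genes were −0.24 for CDK1, −0.23 for HMMR, −0.22 for ECT2 and −0.18 for KIF11 in the G2/M list. They were −0.43 for RFC3, −0.33 for both CDC6 and POLA2, and −0.28 for GINS2 in the G1/S list. CDK1 is the mitotic kinase, CDC6 loads the replicative helicase, POLA2 belongs to the primase complex and GINS2 to the active helicase.

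Genes known to respond to arsenic were at like levels in both libraries. MT2A, a metallothionein, was at 1522 CPM in p53-M133T with ATO and 1501 CPM in vector with ATO, and at 157 and 159 CPM in the untreated partners. HMOX1, heme oxygenase, was at 2229 and 2011 CPM, a fold of 1.11 (1.098 to 1.12), beside 30.6 and 25.04 CPM without ATO. GCLM, which supplies glutathione synthesis, was lower at 184 against 216 CPM, a fold of 0.851 (0.824 to 0.879). The list medians were −0.042 for 5 metallothionein and zinc export genes, −0.003 for 23 NRF2 targets, 0.026 for 23 ATF4 targets, 0.024 for 19 heat shock genes and 0.030 for 18 genes of the unfolded protein response. HSPA4L, listed both as a heat shock gene and a p53 target, was the only member of these lists past 1.5-fold, at 71.8 against 42.5 CPM.

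**Figure D4:**
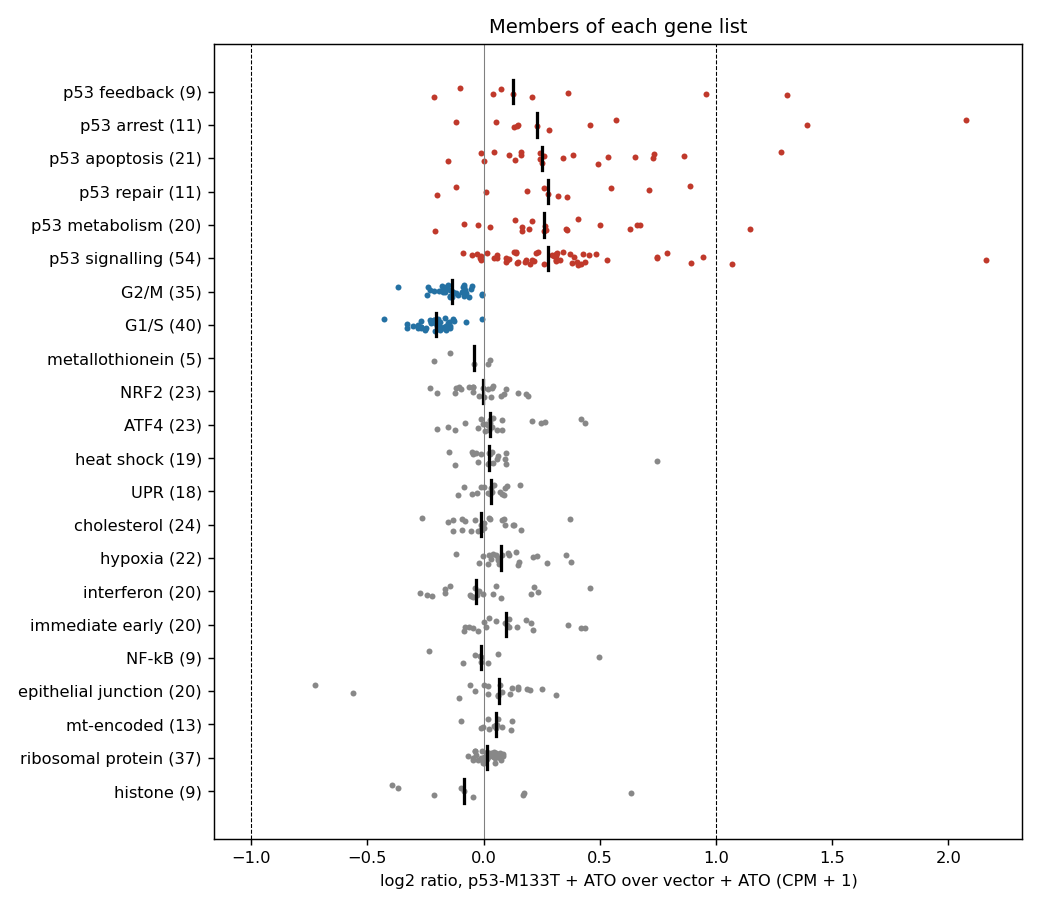
Log2 ratio of p53-M133T with ATO over vector with ATO (horizontal axis, CPM + 1) for each member of 22 gene lists, 1 point per gene, with the number of members that passed the filter in brackets, the median as a black bar and dashed lines at 2-fold. The p53 lists (red) have medians from 0.125 to 0.279, and all G2/M and G1/S members (blue) are below 0 as drawn. With DESeq2 size factors 1 of each list was above 0, with the length and GC correction 2 G2/M genes, and with p53-R273H with ATO as control 2 of each list.

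Other list medians lay near 0: cholesterol synthesis at −0.011, hypoxia and glycolysis at 0.073, interferon-stimulated genes at −0.032, immediate early genes at 0.095, NF-kB genes at −0.012, mitochondrially encoded transcripts at 0.052, ribosomal proteins at 0.016 and histones at −0.085. Above 0 were 19 of 22 hypoxia genes (86.4%), beside 87.3% of p53 targets and 50.4% of all genes, with 11 intervals above 1 and 1 below. Immediate early genes had 15 of 20 above 0, mitochondrial transcripts 10 of 13 and ribosomal proteins 24 of 37. Cholesterol genes had 11 of 24, interferon genes 7 of 20, and NF-kB genes and histones 3 of 9 each. Against p53-R273H with ATO, the median of mitochondrial transcripts was −0.654, with 0 of 13 above 0. That library was itself higher than vector with ATO in these transcripts, with a median of 0.692 and 13 of 13 above 0. Epithelial adhesion genes had a median of 0.065, with VIM, the mesenchymal filament vimentin, the lowest at 1.11 against 2.49 CPM. VIM was also lower in p53-M133T than in vector without ATO, at 2.23 against 5.999 CPM, and lower in p53-R273H than in vector, at 1.79 CPM without and 0.751 CPM with ATO.

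Many of the 24 genes at least 2-fold higher are not listed p53 targets. Of all 24, 19 share an exon with another gene, as do 50.4% of the genes compared, 13 were below 5 CPM in both libraries, and 8 had 0 counts in vector with ATO. ABCA12, a keratinocyte lipid transporter, was at 9.32 CPM in p53-M133T with ATO against 2.30 CPM, a fold of 4.06 (3.20 to 5.20), and between 1.36 and 3.32 CPM in the other libraries. ACTA2, smooth muscle actin, whose gene overlaps the start of FAS on the opposite strand of chromosome 10, was at 5.52 against 1.44 CPM, a fold of 3.83 (2.83 to 5.26), and at 8.09 CPM with wild-type p53. SCN2A, a sodium channel, was at 2.09 against 0.401 CPM. The near-identical copies SLX1A and SLX1B, subunits of a structure-specific nuclease, differed in opposite directions, SLX1A being at 14.2 against 5.34 CPM and SLX1B at 0.977 against 10.3 CPM. The near-identical histone copies HIST2H2AA3 and HIST2H2AA4 did likewise, at 1.95 against 0 and 0.555 against 2.24 CPM. In p53-R273H with ATO they were at 2.17 and 0 CPM. The sources used here do not say how reads of such copies were assigned, so these values are uncertain.

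BLOC1S5-TXNDC5, a read-through gene that shares its exons with both of its parts, had 0 counts in p53-M133T with ATO and 663 in vector with ATO. With 3 counts in place of 0 the fold was 0.00447, and the upper limit of the counting interval was 0.00552. ZACN, an ion channel gene, was at 0.132 against 2.11 CPM. The read-through and clone-named genes CTC-432M15.3, RP11-500M8.7, KBTBD11-OT1 and RP11-512M8.5 and the platelet gene GP1BB had 0 counts in vector with ATO. With 3 counts in place of 0, their folds were 37.2, 25.4, 22.1, 21.4 and 15.5. The lower limits of the counting interval were 29.8, 20.1, 17.5, 16.9 and 12.1. In p53-R273H with ATO these genes had 0, 44, 58, 17 and 33 counts in the same order. Since the counting rule for shared exons is not known, the values of these read-through and exon-sharing genes are uncertain too. Next to the 2-fold size, INPP5D, EIF3CL and TIGD7 were just inside, at log2 ratios of 1.07, 1.05 and 1.05, and NECTIN4, PHLDA3 and SERPINB5 just outside, at 1.00, 0.96 and 0.95.

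Among genes that are not p53 targets on these lists, reach a mean of 5 CPM in the pair and share no exon, 6 were at least 1.5-fold higher and 1 was lower, named here after their values were seen. C1orf116 was at 10.8 CPM in p53-M133T with ATO against 5.64 CPM, a fold of 1.91 (1.61 to 2.26), and at 16.1 CPM with wild-type p53. GALNT5, an enzyme of mucin-type glycosylation, was at 10.8 against 6.599 CPM at 33.4 CPM with wild-type p53 and at 12.03 CPM in p53-R273H without ATO. HES2, MR1, FAM156B and EIF3CL, a near-identical copy of EIF3C, were also higher than in vector with ATO. In vector without ATO, HES2, MR1 and EIF3CL were at 12.8, 9.82 and 17.7 CPM, above their 11.2, 6.68 and 12.9 CPM in p53-M133T with ATO. FAM156B was at 7.499 CPM in vector without ATO, below its 8.14 CPM in p53-M133T with ATO. The lower gene, ZNF367, a zinc finger factor, was at 28.5 against 43.9 CPM, a fold of 0.649 (0.601 to 0.702), and between 38.5 and 47.5 CPM in the other libraries without wild-type p53, while the wild-type library held 24.4 CPM.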

How the data were processed

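For the 7 RNA-seq libraries, the authors deposited raw counts in 1 table. Per the labels' protocols, TruSeq libraries were read in pairs of 150 bp. STAR, cutadapt, FastQC and hg38 are named per the submitters' processing notes. The sources used here name no counting program and no strand setting. All 19699 identifiers matched GENCODE 29. Symbols turned into dates (28) or shared (22) took GENCODE names.

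CPM were scaled with TMM (edgeR 4.0.16, R 4.3.3) over all libraries. Log2 ratios used a pseudocount of 1 over genes that reached 1 CPM in any library. Folds against 0 counts used 3 counts. Intervals (scipy 1.17.1) cover counting error alone: without molecular identifiers, reads need not be separate molecules. A count of 3 was 0.0792 CPM in p53-M133T with ATO and 0.0802 CPM in vector with ATO. The calculation was tested on simulated data. Fits for exon length and GC content used scikit-learn 1.9.0.

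The genes, the 26 lists and the promoter searches were chosen with earlier results of these data known. Named are CDKN1A and MDM2, the 20 largest and 15 smallest ratios past 2-fold, each list's members past 2-fold and, where these were fewer than 4, its extremes; others were named after their values were seen, and a few items that the rule names are not reported here. Alternatives were the pseudocount, the filter, DESeq2 1.42.0 size factors, total counts, the length and GC correction, leaving out genes that share exons, and p53-R273H with ATO as control.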

Additional observations from a re-analysis of the deposited data

Results flagged for a closer look

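The naming rule picked 26 genes past 2-fold with ATO. In 9 of these, p53-M133T over vector differed in the opposite direction without ATO, with a counting interval that did not hold 1. Each pair is 1 library against 1, this difference between the pairs was not tested, and its share over all genes was not counted. Higher with ATO and lower without it were 3 listed p53 targets: MDM2 with a fold of 0.871 without ATO (0.838 to 0.905), TP53INP1 with 0.780 (0.687 to 0.884) and SESN1 with 0.811 (0.682 to 0.963). Of genes that share exons or have near-identical copies, CTC-432M15.3 had a fold of 0.0930 and HIST2H2AA3 of 0.134 without ATO, and both were higher with it. Lower with ATO and higher without it were HIST2H2AA4 with a fold of 1.49, ZACN with 3.10, SLX1B with 1.18 and BLOC1S5-TXNDC5 with 1.24. Some of these differences without ATO were not particular to p53-M133T. Over the same vector library, p53-R273H had folds of 0.622 for TP53INP1, 0.839 for SESN1, 0.423 for HIST2H2AA3, 3.09 for ZACN and 1.41 for BLOC1S5-TXNDC5. It had 0.9996 for MDM2, 0.816 for CTC-432M15.3, 1.06 for SLX1B and 0.731 for HIST2H2AA4, with intervals that hold 1.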

How the results depend on the processing

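No paired analysis was possible because each group has 1 library, and no replicate could be left out. Without a filter and with DESeq2 size factors, total counts or the length and GC correction, the counts of genes and p53 targets past both sizes stayed within 1.5 times. With a pseudocount of 0.5, 39 genes were at least 2-fold higher and 13 lower, and 140 and 72 passed 1.5-fold. With a pseudocount of 5 the counts were 5 and 2, and 25 and 3 at 1.5-fold, with 4 p53 targets past 2-fold. A mean of at least 5 CPM left 9 and 2, and 36 and 7. Leaving out genes that share exons left 5 and 1, and 33 and 5, with 3 p53 targets past 2-fold and 11 past 1.5-fold. Against p53-R273H with ATO, 8 genes were at least 2-fold lower and 72 at least 1.5-fold lower. The counts of all genes higher past both sizes stayed within 1.5 times of the 24 and 91 of the main pair. Of the 126 p53 targets, 12 passed 2-fold with this control. HIST2H2AA3 and HIST2H2AA4 turned direction, at log2 ratios of −0.10 and 0.64. The causes were not tested, beyond fewer genes being compared under the filters. The median of p53 targets lay between 0.201 and 0.300 under these alternatives. Depth limits faint genes most, as the interval of INPP5D, 4.54 to 47.1, shows.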
